A study of Mus musculus with 18 samples.

Results

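The genes described here are 34 interferon-stimulated genes, chosen by name from a list of genes that cells switch on when they receive an interferon signal, among the 38355 genes counted in mouse left ventricle. All 34 were found by symbol, and all 34 passed the low-count filter. Their levels were read in 18 RNA sequencing libraries of 4 groups: 5 WT, 5 cycD2 sham, 3 cycD2 TAC (replicates 1, 2 and 4) and 5 cycD2 Shunt. All mice had the (DBA/2J x C3HeB/FeJ)F1 background. WT mice were wild type and untreated. Mice of the other groups were MHC-cycD2 transgenic, a line in which the myosin heavy chain promoter drives the cell cycle protein cyclin D2 in heart muscle cells, and had surgery at 8 weeks of age. TAC narrows the transverse aorta and loads the left ventricle with pressure, Shunt joins the aorta to the vena cava and loads it with volume, and sham animals had the operation without the band or the puncture. Both procedures have a sham in the labels, with no word on the one used for these animals, and the time from surgery to tissue collection is not given in the sources used here. WT and sham therefore differ in genotype and in surgery together. No WT group with a load was analysed here.

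Interferons are secreted proteins that warn cells of viruses and of nucleic acid in the wrong place. Type I interferons bind the receptor Ifnar1/Ifnar2, whose kinases Jak1 and Tyk2 switch on Stat proteins. Stat2 and Irf9 belong to a complex that binds an interferon-stimulated response element (ISRE) in promoters. Interferon gamma acts through its own receptor and through a gamma-activated site (GAS). The genes switched on encode sensors of foreign RNA, enzymes that degrade or block viral RNA, protein modifiers and the transcription factors of the pathway itself. Many of them are expressed at a low level in healthy tissue without infection, the heart included.

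Libraries held 19297821 to 30594075 counts assigned to genes. The unit of level is CPM, which gives a gene's counts relative to the scaled total of its library, and differences are log2 fold changes with their SE. A gene is called changed at a Benjamini-Hochberg adjusted p under 0.05 in edgeR's quasi-likelihood test, adjusted over the 14876 genes tested. The labels do not state that the libraries of a group came from separate animals, so p-values measure the spread between these libraries. Some libraries stood apart. Ccnd2, the transgene's coding sequence, was at 141 to 189 CPM in WT and at 17739 to 30478 in the transgenic libraries, except for the library labelled cycD2 TAC replicate 2, where it was at 228. WT replicate 3 had the highest level of all 18 libraries for 23 of the 34 genes (67.6%), against 6.86% of all genes tested. Xist, expressed from the inactive X of females, was above the Y-linked Ddx3y in TAC replicates 1 and 2 and in all 5 Shunt libraries, and below it in the other 11. The clock gene Arntl was above Dbp, which peaks in the opposite phase, in WT 1 to 3, sham 1 and 2 and all 3 TAC libraries, and below it in the other 10. Counts without WT 3 and without TAC 2 are given beside the results, with the genes whose calls were then lost.

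Promoter letters are shown because the ISRE is what links the genes' responses to the complex that holds Stat2 and Irf9. RefSeq windows of the build GRCm38.p6, from 250 bases before to 50 after the start of transcription, were at hand for 24 of the 34 genes. The core of the ISRE, GAAA followed after any 2 bases by GAAA, was searched on both strands, with overlapping matches counted. It occurred in 14 of the 24 genes (58.3%), against 3.99% of all 27025 genes with such a window. The letters TTCNNNGAA of the GAS occurred in 5 of 24 (20.8%), against 9.55% of all genes. The reference is that of C57BL/6J, not of the strains crossed here. In the stretches below, written 5′ to 3′ along the gene, capitals mark the ISRE core or, where the match lies on the other strand, their reverse complement. Isg15 and Oas1a were among the genes higher in TAC than in WT, Ifit1, Rsad2 and Stat2 among those lower in sham than in WT, and Gbp2 and Gbp3 were the genes of the list that stayed lowest in TAC relative to WT.
Isg15 (chr4:156200855-156200916, minus strand): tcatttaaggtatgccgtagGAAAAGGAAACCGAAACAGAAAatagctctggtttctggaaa
Oas1a (chr5:120907526-120907565, minus strand): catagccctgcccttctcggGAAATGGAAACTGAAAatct
Ifit1 (chr19:34640765-34640833, plus strand): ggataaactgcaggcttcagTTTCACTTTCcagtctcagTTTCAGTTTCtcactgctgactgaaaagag
Rsad2 (chr12:26456543-26456592, minus strand): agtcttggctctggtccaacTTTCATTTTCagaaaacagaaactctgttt
Stat2 (chr10:128270256-128270305, plus strand): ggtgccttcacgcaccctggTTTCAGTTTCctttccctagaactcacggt
Gbp2 (chr3:142620584-142620633, plus strand): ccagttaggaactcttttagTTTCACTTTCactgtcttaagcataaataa
Gbp3 (chr3:142559979-142560034, plus strand): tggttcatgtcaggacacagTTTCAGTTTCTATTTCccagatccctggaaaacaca
Isg15 held 3 overlapping matches, Oas1a, Ifit1 and Gbp3 held 2 each, and Rsad2, Stat2 and Gbp2 held 1. The letters were thus present in genes called higher in TAC than in sham (Isg15, Oas1a and Stat2) and in genes not called there (Ifit1, Rsad2, Gbp2 and Gbp3). Oasl2, Irf7, Irf9, Ifit2, Cmpk2, Herc6, Dtx3l, Xaf1, Ifi35 and Ifi44 had a window without these letters, which says only that they are not in that window.

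Across the list, levels were lowest in cycD2 sham, near those of WT in cycD2 TAC and between sham and TAC in cycD2 Shunt. In sham against WT, 19 of the 34 genes were lower and 0 higher, where 14.9% of all genes tested were called lower. In TAC against sham, 23 were higher and 0 lower, where 16.4% of all genes were called higher. In TAC against WT, 6 were higher (17.1% of all genes) and 1, Gbp2, was lower (16.9% of all genes). The median log2 fold change of the list was -0.52 for sham against WT, 0.62 for TAC against sham and 0.13 for TAC against WT, beside -0.014, 0.0067 and 0.0089 over all genes tested. Sham had the lowest mean of the 4 groups for 31 genes, TAC the highest for 25 and WT the highest for 9, and in 30 genes the means ran sham, Shunt, TAC from low to high. As a share of the WT mean, sham means ran from 42.9% (Rsad2) to 89.1% (Ddx58) with a median of 69.8%, TAC means from 64.1% (Gbp2) to 177% (Oas3) with a median of 109%, and Shunt means from 59.1% (Rsad2) to 102% (Oas3) with a median of 85.8%. Sham libraries enter the first 2 of these comparisons and TAC libraries the last 2, so a low value in the shared group moves both. In bulk tissue, fewer cells of a type and less RNA per cell cannot be told apart. Leaving out WT replicate 3 brought the count lower in sham from 19 to 12 and the median to -0.29, with Gbp2, Ifit3, Irf7, Isg15, Oasl2, Parp14 and Rtp4 no longer called. Leaving out sham replicate 1 also left 12, with Stat2 lost in place of Ifit3. How near TAC lay to WT also depended on WT replicate 3, which is part of the WT means used above. Without that library 10 genes were higher in TAC than in WT (15.0% of all genes), with a median of 0.29. Leaving out TAC replicate 2 brought the count higher in TAC than in sham from 23 to 12. The 11 genes lost there were Bst2, Cmpk2, Ddx58, Dtx3l, Eif2ak2, Ifi35, Ifih1, Ifit3, Parp14, Stat2 and Usp18, whose fold changes stayed positive, from 0.32 (Ddx58, Ifi35) to 0.74 (Usp18), with adjusted p from 0.0531 (Bst2) to 0.177 (Parp14). That count was 18 without TAC replicate 1 or sham replicate 1.

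**Figure D1:**
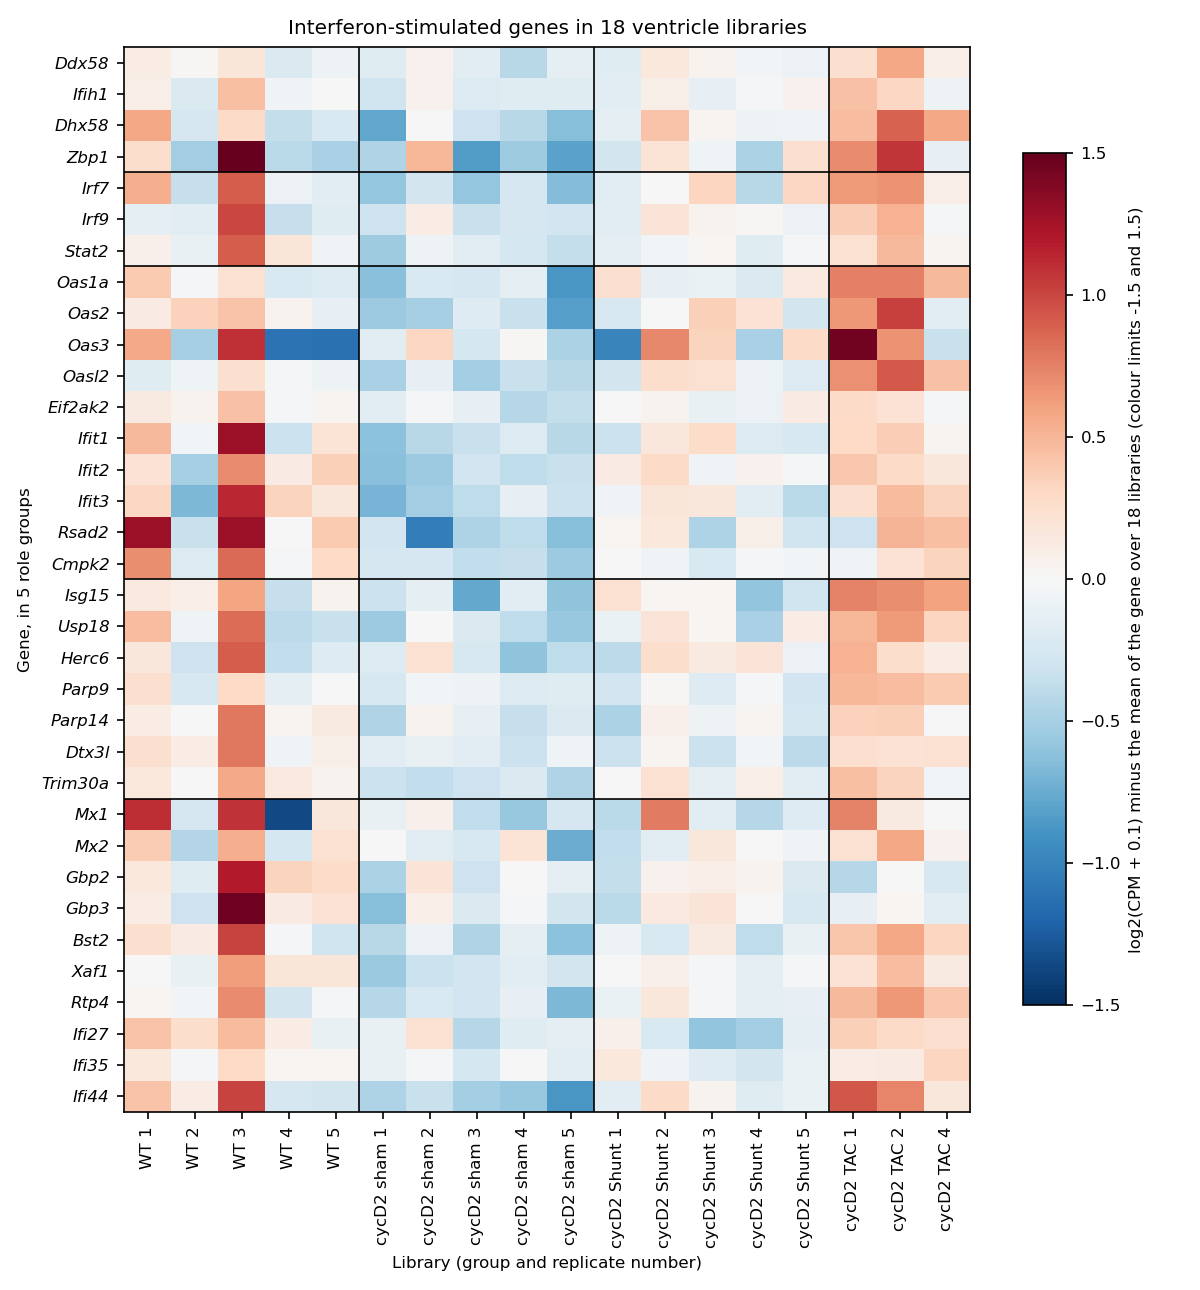
Level of each of the 34 genes (rows, in 5 role groups separated by lines) in each of the 18 libraries (columns, by group), as log2(CPM + 0.1) minus the gene's mean over the 18 libraries; red is above and blue below that mean, with colours capped at 1.5. Sham columns are mostly blue, TAC columns mostly red, and WT 3 is the reddest WT column, with the highest WT level in 31 of the 34 genes.

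Compared per kilobase of exon, the genes ran over a wide range of levels in WT. Bst2, tetherin, which holds budding virus particles at the cell surface, had the highest WT mean at 29.6 CPM per kb, followed by Ifi27 at 21.1, Gbp2 at 15.4 and Ifi35 at 12.4. The lowest were Oas3 at 0.0611 and the GTPase Mx1 at 0.144 CPM per kb. Oas3 had 3 to 32 counts in a library and Mx1 2 to 19, so at this depth only large differences in these genes were detectable. Their fold changes did not pass the test in any comparison. Among the others the lowest count in any library was 14, in Zbp1.

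The sensors detect viral or misplaced nucleic acid in the cytosol. Ddx58 (RIG-I) and Ifih1 (MDA5) bind double-stranded RNA and signal through Mavs, Dhx58 (LGP2) modulates both, and Zbp1 binds nucleic acid in the left-handed Z form. None of the 4 was called in sham against WT, and 3 (Ddx58, Ifih1 and Dhx58) rose in TAC against sham. The WT libraries held Dhx58 at 3.74, 2.06, 3.05, 1.90 and 2.10 CPM, sham at 1.40, 2.45, 1.98, 1.83 and 1.55, TAC at 3.43, 4.65 and 3.74, and Shunt at 2.23, 3.35, 2.55, 2.35 and 2.37, each in order of replicate number. Every TAC library lay above every sham library and every Shunt library, while WT 1 lay inside the TAC range. The log2 fold change of Dhx58 was -0.47 ± 0.21 in sham against WT (adjusted p 0.0950), 1.09 ± 0.23 in TAC against sham (0.00140) and 0.62 ± 0.22 in TAC against WT (0.0392). Ddx58 changed by 0.48 ± 0.12 in TAC against sham (adjusted p 0.00525) and by 0.32 ± 0.12 against WT (0.0483), and its sham libraries, at 13.9 to 19.5 CPM, overlapped those of WT at 16.0 to 21.1. Without TAC 2 Ddx58 changed by 0.32 ± 0.12 in TAC against sham (adjusted p 0.0659), and neither of its calls was kept. Ifih1 rose by 0.40 ± 0.14 in TAC against sham (adjusted p 0.0318), with TAC at 12.2 to 17.4 CPM and sham at 10.3 to 13.4, and by 0.35 ± 0.15 without TAC 2 (0.114). Zbp1 was at 5.16 CPM in WT 3 and at 0.825 to 1.5 in the other 4 WT libraries, at 0.644 to 1.77 in sham, at 1.12 to 2.68 in TAC and at 0.857 to 1.46 in Shunt, and it was not called in any of the 6 comparisons.

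The transcription factors of the list are Stat2 and Irf9, which act together at the ISRE, and Irf7, which raises the output of interferon genes. Stat2 and Irf7 were lower in sham than in WT and higher in TAC than in sham, and none of the 3 was called in TAC against WT. Stat2 stood at 20.2, 17.8, 36.2, 21.8 and 18.5 CPM in the WT libraries, at 13.3, 18.2, 17.1, 16.0 and 15.0 in sham, at 22.5, 27.1 and 19.8 in TAC, and at 17.3, 18.6, 19.6, 17.0 and 18.9 in Shunt. WT 3 was far above the other WT libraries. All TAC libraries were above all sham libraries, and sham and WT overlapped at sham 2. The log2 fold change was -0.52 ± 0.16 in sham against WT (adjusted p 0.0186), 0.54 ± 0.18 in TAC against sham (0.0282) and 0.01 ± 0.18 in TAC against WT (0.957, 95% interval -0.34 to 0.37). Without WT 3 the Stat2 difference in sham against WT was -0.30 ± 0.10 (adjusted p 0.0416), and without TAC 2 that in TAC against sham was 0.39 ± 0.20 (0.171). For Irf7 the WT libraries held 18.4, 9.95, 23.9, 11.9 and 11.4 CPM, sham 8.42, 10.4, 8.46, 10.6 and 8.01, TAC 19.8, 20.3 and 13.5, and Shunt 11.2, 12.6, 15.8, 9.46 and 15.8. The WT spread was wide, from 9.95 to 23.9, and held all 3 TAC values, whereas TAC and sham did not overlap. Irf7 changed by -0.72 ± 0.22 in sham against WT (adjusted p 0.0207), by 0.96 ± 0.24 in TAC against sham (0.00669) and by 0.24 ± 0.24 in TAC against WT (0.473). Without WT replicate 3 the sham and WT difference of Irf7 no longer passed the test. Irf9, at 39.5 CPM in WT 3 and 15.6 to 17.9 in the other WT libraries, was not called in these 3 comparisons, with sham at 15.7 to 21.3 CPM and TAC at 19.5 to 28.4. Irf7 overlaps Phrf1, Irf9 overlaps Rnf31 and Dhx58 overlaps Dhx58os, and the library kit does not mark strand, so reads from the shared stretches cannot be told apart.

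The effectors that act on nucleic acid or nucleotides formed the group with the most genes lower in sham, 8 of 10, where 14.9% of all genes were lower. They are the oligoadenylate synthetases Oas1a, Oas2 and Oas3, which activate the nuclease RNase L, their relative Oasl2, the kinase Eif2ak2 (PKR), which halts translation, the RNA-binding Ifit1, Ifit2 and Ifit3, and the neighbouring genes Rsad2 (viperin) and Cmpk2, enzymes of antiviral nucleotide metabolism. In TAC against sham 7 of the 10 rose, in TAC against WT 2 (Oasl2 and Oas1a) were higher, and in TAC the means of 4 (Ifit1, Ifit3, Rsad2 and Cmpk2) were below those of WT without passing the test. Oasl2 stood at 10.0, 10.9, 13.5, 11.1 and 10.8 CPM in WT, at 8.11, 10.5, 8.00, 9.04 and 8.50 in sham, at 18.4, 21.6 and 15.5 in TAC, and at 9.42, 13.8, 13.4, 10.8 and 9.85 in Shunt. The 3 TAC libraries lay above all 15 others, WT 3 included. The log2 fold change of Oasl2 was -0.35 ± 0.13 in sham against WT (adjusted p 0.0439), 1.07 ± 0.14 in TAC against sham (3.95e-05) and 0.72 ± 0.14 in TAC against WT (0.000709), or 1.64-fold. Oas1a stood at 2.49, 1.86, 2.21, 1.58 and 1.60 CPM in WT, at 1.18, 1.58, 1.56, 1.69 and 0.974 in sham, at 3.23, 3.23 and 2.66 in TAC, and at 2.23, 1.71, 1.74, 1.60 and 2.08 in Shunt. Here too every TAC library was above every other library, while sham overlapped WT and its difference of -0.48 ± 0.18 missed the threshold (adjusted p 0.0585). Oas1a changed by 1.12 ± 0.20 in TAC against sham (adjusted p 0.000410) and by 0.64 ± 0.20 in TAC against WT (0.0166). Oas1a has near-identical neighbours such as Oas1g, so its counts may be incomplete or shared.

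Rsad2 had the lowest sham mean of the list relative to WT. It stood at 25.0, 8.09, 25.2, 10.2 and 13.4 CPM in WT, at 8.37, 4.94, 7.4, 7.85 and 6.55 in sham, at 8.22, 14.6 and 14.0 in TAC, and at 10.5, 11.4, 7.41, 10.8 and 8.29 in Shunt, where the WT libraries 1 and 3 were more than 10 CPM above the other 3. Rsad2 changed by -1.22 ± 0.29 in sham against WT (adjusted p 0.00441), by 0.81 ± 0.32 in TAC against sham (0.0672) and by -0.42 ± 0.32 in TAC against WT (0.342, 95% interval -1.05 to 0.22), so its TAC level was not distinguished from either. Cmpk2, which lies beside it, stood at 16.3, 8.66, 18.1, 9.86 and 12.3 CPM in WT, at 8.37, 8.37, 7.72, 7.85 and 6.82 in sham, at 9.62, 11.6 and 12.6 in TAC, and at 9.96, 9.63, 8.52, 9.91 and 9.69 in Shunt. Sham lay below every library of the other 3 groups. The difference of Cmpk2 was -0.74 ± 0.16 in sham against WT (adjusted p 0.00222) and 0.53 ± 0.18 in TAC against sham (0.0333, or 0.0503 with the replicate number as a block and 0.102 without TAC 2), and in TAC against WT it was -0.21 ± 0.18 (0.395). Ifit2 stood at 24.9, 15.2, 34.9, 23.3 and 27.4 CPM in WT, at 13.8, 14.6, 17.5, 16.3 and 17.0 in sham, at 28.3, 26.1 and 24.1 in TAC, and at 23.4, 26.2, 20.7, 22.3 and 21.1 in Shunt. WT 2 was the one WT library within the sham range, and TAC and Shunt each lay wholly above sham. Ifit2 changed by -0.67 ± 0.15 in sham against WT (adjusted p 0.00290), by 0.72 ± 0.17 in TAC against sham (0.00352) and by 0.06 ± 0.17 in TAC against WT (0.824, 95% interval -0.27 to 0.39). Ifit1 was lower in sham by -0.84 ± 0.23 (adjusted p 0.0116), or -0.51 ± 0.16 without WT 3 (0.0309), and its 0.64 ± 0.26 in TAC against sham missed the threshold (0.0702) but passed with the replicate block (0.0223). Oas2, Eif2ak2 and Ifit3 also were lower in sham than in WT and rose in TAC against sham, where Eif2ak2 and Ifit3 were not called without TAC 2.

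The protein modifiers include Isg15, a ubiquitin-like protein attached to other proteins and also secreted, Usp18, which removes it and restrains the receptor, and Herc6, a ligase for it. Parp9 and Dtx3l form a complex of ADP-ribosylation and ubiquitin transfer, Parp14 attaches ADP-ribose, and Trim30a is a ring-finger protein that restrains Toll-like receptor signalling. Of these 7 genes, 4 (Isg15, Parp14, Dtx3l and Trim30a) were lower in sham than in WT, all but Herc6 rose in TAC against sham, and Isg15 and Parp9 were higher in TAC than in WT. Isg15 stood at 4.69, 4.54, 6.39, 3.30 and 4.37 CPM in WT, at 3.36, 3.81, 2.44, 3.74 and 2.74 in sham, at 7.15, 6.90 and 6.44 in TAC, and at 4.96, 4.28, 4.29, 2.76 and 3.41 in Shunt. The TAC libraries were above all others, narrowly so against WT 3. Isg15 changed by -0.53 ± 0.18 in sham against WT (adjusted p 0.0358), by 1.08 ± 0.20 in TAC against sham (0.000579) and by 0.55 ± 0.20 in TAC against WT (0.0385). Parp9 stood at 20.1, 14.4, 21.1, 15.4 and 17.0 CPM in WT, at 14.4, 16.6, 16.2, 14.7 and 15.0 in sham, at 24.2, 23.5 and 22.4 in TAC, and at 14.0, 17.2, 14.9, 16.9 and 14.0 in Shunt. TAC was again above all other libraries, and sham, Shunt and the lower WT libraries shared a range. Its difference was -0.19 ± 0.10 in sham against WT (adjusted p 0.158), 0.60 ± 0.11 in TAC against sham (0.000583) and 0.41 ± 0.11 in TAC against WT (0.00841). Dtx3l lies beside Parp9, and the ends of both genes overlap on opposite strands, so reads there cannot be told apart. Its libraries held 39.1, 35.9, 57.5, 31.9 and 35.2 CPM in WT, 29.5, 30.7, 29.6, 26.5 and 31.6 in sham, 39.4, 38.5 and 38.9 in TAC, and 26.6, 34.1, 26.4, 32.3 and 25.2 in Shunt. The TAC libraries were within 1 CPM of each other and above all sham libraries, inside the WT range. Dtx3l changed by -0.43 ± 0.13 in sham against WT (adjusted p 0.0165), by 0.40 ± 0.14 in TAC against sham (0.0445, or 0.0520 with the replicate block and 0.104 without TAC 2) and by -0.04 ± 0.15 in TAC against WT (0.876). Without WT 3 its difference in sham against WT was -0.26 ± 0.09 (adjusted p 0.0401). Trim30a stood at 12.9, 11.6, 17.2, 12.8 and 12.0 CPM in WT, at 9.25, 8.94, 9.33, 9.95 and 8.45 in sham, at 15.9, 14.6 and 11.3 in TAC, and at 11.5, 13.5, 10.5, 12.4 and 10.3 in Shunt. No sham library reached the lowest library of any other group. Trim30a changed by -0.53 ± 0.12 in sham against WT (adjusted p 0.00244), by 0.60 ± 0.13 in TAC against sham (0.00223) and by 0.07 ± 0.13 in TAC against WT (0.724). It belongs to a cluster of close copies, which can share reads.

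The remaining 10 genes encode membrane proteins, GTPases and proteins of less clear role. Xaf1 promotes cell death, Rtp4 is a chaperone of membrane receptors, the Mx and Gbp proteins are GTPases that act on viruses and on microbes within cells, and Ifi27, Ifi35 and Ifi44 are named for their induction by interferon. The annotation gives Mx2 as a polymorphic pseudogene, so whether these mice make a working Mx2 protein is not known from these data. In sham against WT 5 of the 10 were lower (Gbp2, Bst2, Xaf1, Rtp4 and Ifi44), in TAC against sham 5 were higher (Bst2, Xaf1, Rtp4, Ifi35 and Ifi44), and in TAC against WT Gbp2 was lower. Xaf1 stood at 20.5, 19, 31.8, 23.3 and 23.3 CPM in WT, at 14.0, 16.4, 16.8, 18.3 and 17.0 in sham, at 23.9, 28.4 and 22.6 in TAC, and at 20.6, 21.7, 20.2, 18.5 and 20.2 in Shunt. Sham lay below all other libraries. Xaf1 changed by -0.52 ± 0.11 in sham against WT (adjusted p 0.00268), by 0.60 ± 0.13 in TAC against sham (0.00200) and by 0.08 ± 0.13 in TAC against WT (0.654). Rtp4 stood at 8.72, 8.30, 14.0, 7.01 and 8.38 CPM in WT, at 6.32, 7.28, 6.99, 7.85 and 5.31 in sham, at 12.0, 13.5 and 11.3 in TAC, and at 7.96, 9.59, 8.38, 7.78 and 7.83 in Shunt. The TAC libraries were above all libraries but WT 3. Rtp4 changed by -0.46 ± 0.15 in sham against WT (adjusted p 0.0312), by 0.86 ± 0.17 in TAC against sham (0.00101) and by 0.40 ± 0.17 in TAC against WT (0.0748). Ifi44 had the largest rise of the list in TAC against sham, 1.20 ± 0.24 (adjusted p 0.00116), from 4.60 to 6.71 CPM in sham to 9.62 to 16.4 in TAC. Ifi35 changed by 0.30 ± 0.10 in TAC against sham (adjusted p 0.0275), and the call was lost with the replicate block, at 0.28 ± 0.11 (0.0727), and without TAC 2 (0.0565).

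Ifi27 stood at 34.9, 31.3, 36.1, 28.1 and 24.0 CPM in WT, at 24.1, 30.5, 19.3, 23.0 and 23.5 in sham, at 33.3, 31.9 and 31.0 in TAC, and at 27.5, 22.2, 17.2, 18.1 and 23.4 in Shunt. The TAC libraries were above all sham and Shunt libraries and inside the WT range. Its difference of 0.41 ± 0.15 in TAC against sham had an adjusted p of 0.0515, just above the threshold of 0.05, and was not called. Gbp2 was singled out after its values were seen, since its TAC mean was the lowest of the list relative to WT. It stood at 31.9, 25.3, 65.4, 36.1 and 34.5 CPM in WT, at 20.5, 32.8, 23.0, 28.4 and 25.8 in sham, at 21.3, 28.8 and 24.2 in TAC, and at 22.3, 29.8, 30.7, 29.6 and 24.6 in Shunt. The transgenic groups shared a range whose upper end overlapped WT 2 and WT 1, and WT 3 was far above. Gbp2 changed by -0.56 ± 0.20 in sham against WT (adjusted p 0.0444), by -0.08 ± 0.23 in TAC against sham (0.832, 95% interval -0.54 to 0.38) and by -0.64 ± 0.24 in TAC against WT (0.0448). Neither call of Gbp2 against WT was kept without WT replicate 3, and that of TAC against WT was lost in 12 of the 18 fits that left out 1 library. Gbp3, in the same cluster on chromosome 3, changed by -0.66 ± 0.26 (adjusted p 0.0665), 0.11 ± 0.30 (0.813) and -0.55 ± 0.30 (0.174) in the same comparisons, and held 49.5 CPM in WT 3 and 14.4 to 20.9 in the other WT libraries. Gbp2 was the one gene of the 34 with a negative fold change in TAC against sham.

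**Figure D2:**
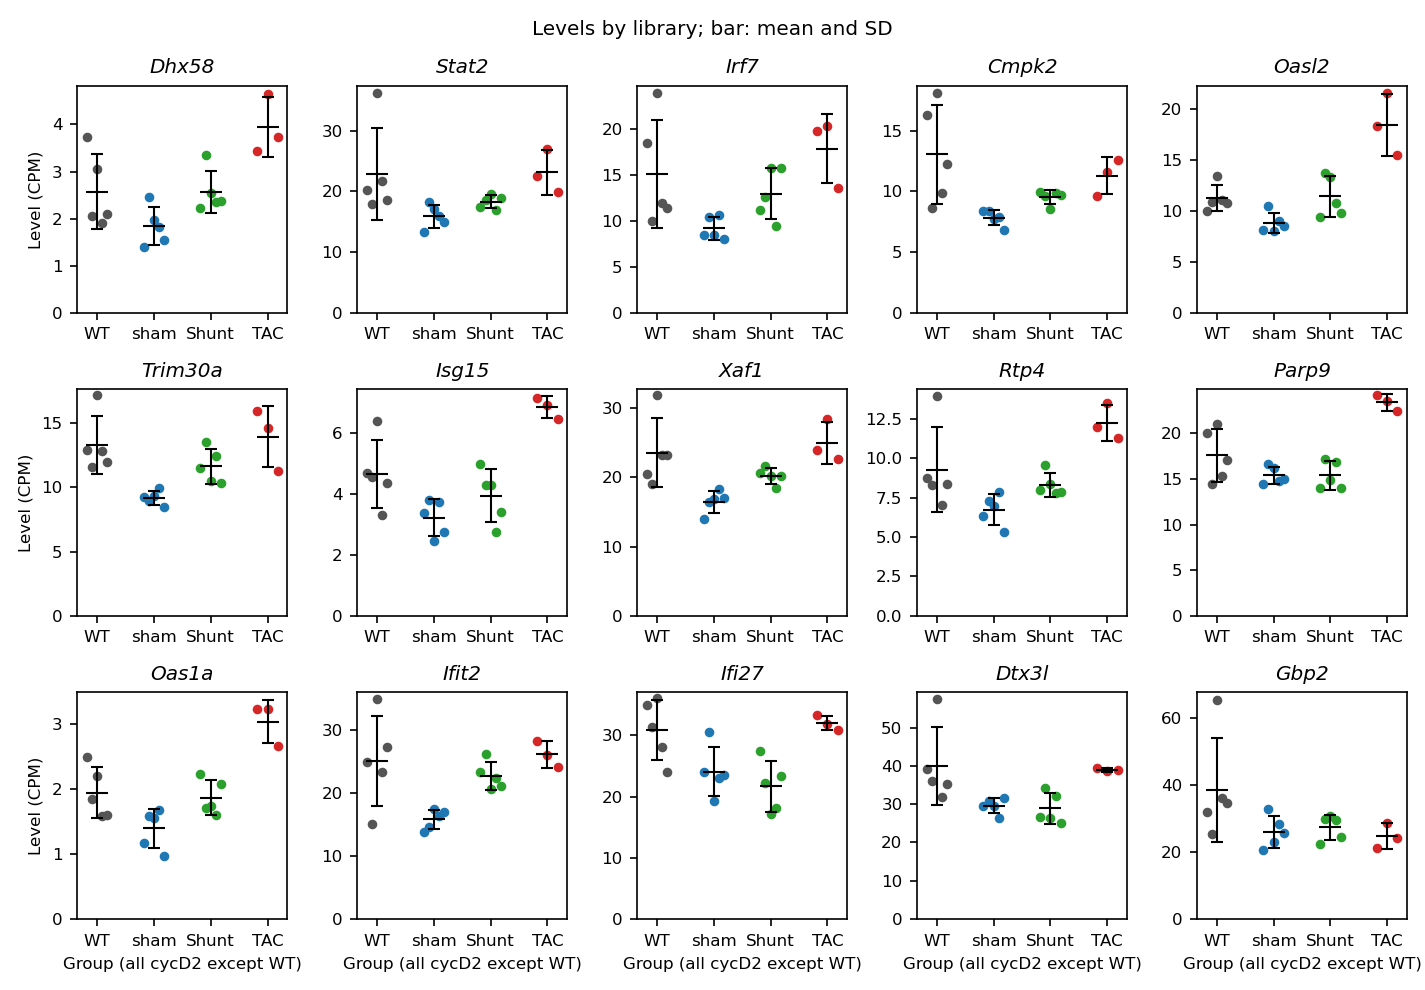
Level in CPM (vertical axis, from 0, a scale of its own in each panel) of 15 of the genes in each library (points), by group, with the mean and SD as bars. In Oasl2, Isg15, Parp9 and Oas1a the 3 TAC points are above all others, in Cmpk2, Trim30a and Xaf1 the sham points are below all others, and in Gbp2 the TAC points share the range of sham.

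Set against WT directly, most TAC levels were not distinguished from WT, and the share of the list called higher, 6 of 34 (17.6%), was near the 17.1% of all genes tested. The 6 were Oasl2, Parp9, Oas1a, Isg15, Dhx58 and Ddx58, by 0.32 to 0.72 on the log2 scale, that is 1.25- to 1.64-fold. In 4 of them (Oasl2, Parp9, Oas1a and Isg15) all TAC libraries were above all WT libraries, a share below the 13.9% of all genes tested that showed such a separation. The mean was above that of WT in 25 genes and below it in 9. For the 27 genes that were not called, the test did not separate TAC from WT, which does not show that the levels were alike. The 95% interval of Xaf1 was -0.17 to 0.34, that of Trim30a -0.19 to 0.33, that of Eif2ak2 -0.19 to 0.25 and that of Ifit3 -0.52 to 0.49. These calls rested on few libraries. The count of 6 became 10 without WT replicate 3, 3 without WT replicate 2, 4 or 5, 2 without TAC replicate 1, where Oasl2 and Parp9 stayed, and 3 without TAC replicate 2, where Oasl2, Parp9 and Oas1a stayed. Without WT 3 the median of the list in TAC against WT was 0.29, Bst2, Ifi44, Irf9 and Rtp4 were also called higher, and Gbp2 was not called. Without both WT 3 and TAC 2, a setting chosen after the data were seen, 5 genes were higher in TAC than in WT and 1 lower, 19 were higher in TAC than in sham, and 10 were lower in sham than in WT.

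**Figure D3:**
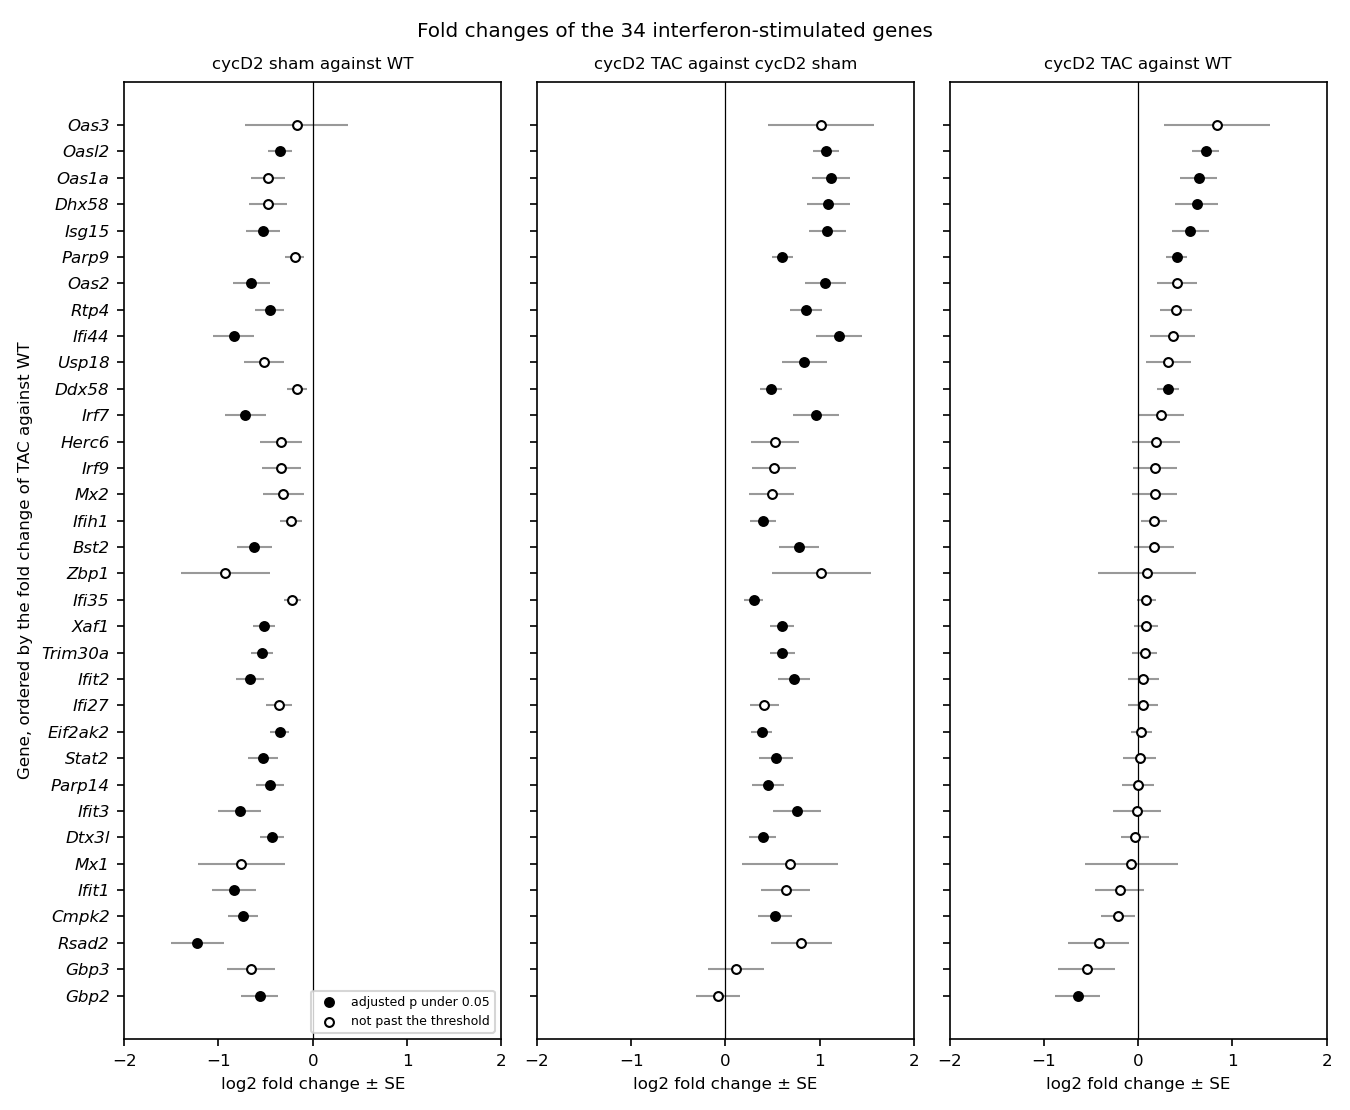
Log2 fold change with its SE (horizontal axis) of each of the 34 genes (rows, ordered by TAC against WT) in sham against WT, TAC against sham and TAC against WT; filled points have an adjusted p under 0.05. All 34 points are below 0 in the first panel, 33 are above 0 in the second, and in the third 6 filled points lie above 0 and 1, Gbp2, below.

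Sex and clock phase moved with these groups. The 3 TAC libraries included 1 with Ddx3y (replicate 4), as in all WT and sham libraries, and 2 with Xist. TAC 4 had the lowest TAC value in 27 of the 34 genes, and TAC 2, the library with Ccnd2 near the WT level, the highest in 20. With Ddx3y libraries alone, TAC was 1 library, and the median of the list was 0.40 in TAC against sham and -0.065 in TAC against WT. With Y-linked expression as a covariate, the count in TAC against sham was 1 and that in TAC against WT 0, while 18 stayed lower in sham than in WT. Of all genes, 1.90% and 6.11% were then called higher in the first 2, and 15.6% lower in sham against WT. Fold changes of the list were then positive in 32 genes and negative in 2 in TAC against sham. In TAC against WT they were positive in 11 and negative in 23. Among libraries with Arntl above Dbp, 0 genes were called lower in sham than in WT (4.41% of all genes). An unadjusted p under 0.05 was found in 17, but the share of all genes under that threshold is not given. In the same libraries 5 were higher in TAC than in sham (5.61% of all genes). Among those with Dbp above Arntl, which hold 2 WT and 3 sham libraries, 4 were lower in sham (5.82% of all genes). With the clock difference as a covariate the counts were 14, 11 and 3 for sham against WT, TAC against sham and TAC against WT. Of all genes, 15.9% were then lower in the first, and 12.3% and 16.1% higher in the others. The median deviation of the 34 genes from their means over all libraries was -0.42 to -0.09 in sham, 0.13 to 0.48 in TAC, -0.16 to 0.12 in Shunt and -0.11 to 0.79 in WT, where leaving WT 3 aside the highest was 0.23.

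**Figure D4:**
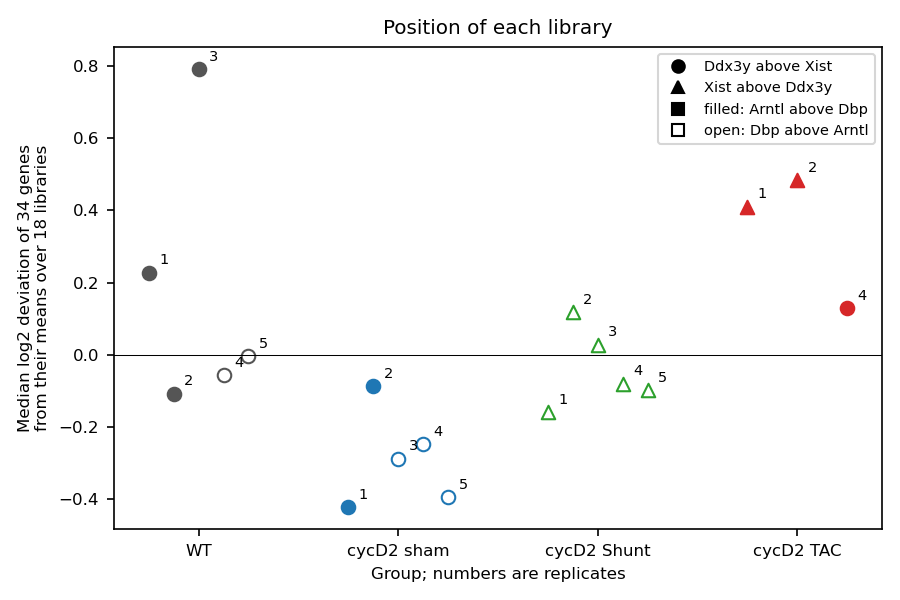
Median over the 34 genes of the log2 deviation from each gene's mean over 18 libraries (vertical axis), for each library by group; triangles have Xist above Ddx3y, filled symbols Arntl above Dbp. Sham libraries lie below 0, TAC libraries above it, and WT 3 is the highest at 0.79.

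Under volume load the list stayed between sham and TAC. In Shunt against sham 0 genes were called in either direction by edgeR and 0 by DESeq2, where 0.242% of all genes tested were called by edgeR. An unadjusted p under 0.05 was found in 10 genes, all higher. The share of all genes under that unadjusted threshold is not given, so the 10 have no background to be read against. The fold change was positive in 31 genes with a median of 0.27, beside 0.0041 over all genes, and in 5 genes all Shunt libraries were above all sham libraries, against 1.79% of all genes, and in 0 all were below, against 2.3%. The smallest p belonged to Ifit2, at 0.52 ± 0.15 (adjusted p 0.160, 95% interval 0.23 to 0.81), and Oasl2 changed by 0.37 ± 0.12 (0.209). Fitted to these 2 groups alone, 1 gene, Ifit2, was called. With the Y-linked covariate 15 fold changes were positive and 19 negative, with a median of -0.085, and 0 genes had an unadjusted p under 0.05. Y-linked expression hardly varied within sham or within Shunt. The adjustment therefore rests mainly on the TAC libraries and cannot test the direction in Shunt against sham. In Shunt against WT 4 genes were lower, Ifi27 by -0.51 ± 0.14 (adjusted p 0.00775), Dtx3l by -0.47 ± 0.13 (0.00863), Cmpk2 by -0.45 ± 0.16 (0.0337) and Rsad2 by -0.76 ± 0.28 (0.0465), where 16.7% of all genes were. That count was 7 without WT replicate 2, and 2 without WT replicate 1, without WT replicate 3 (Cmpk2 and Rsad2 lost) or without Shunt replicate 3, 4 or 5, and without TAC 2 Rsad2 was lost. None of the 4 calls was kept with the Y-linked covariate, which has the same limit here. Oas2 alone was called (-1.37 ± 0.39, adjusted p 0.0478), where 2.44% of all genes were lower. None was kept either among libraries with Dbp above Arntl, where 17 genes had positive and 17 negative fold changes and the median was 0.0003. In Shunt against TAC 11 genes were lower and 0 higher, where 13.6% of all genes were called lower. They were led by Parp9 at -0.60 ± 0.11 (adjusted p 0.000826), Oasl2 at -0.69 ± 0.14 (0.00144) and Isg15 at -0.79 ± 0.20 (0.00649), and in 13 genes all Shunt libraries were below all TAC libraries, against 12.5% of all genes. The count of 11 was 4 without TAC replicate 2 (Parp9, Oasl2, Isg15 and Ifi27), 6 without TAC replicate 1 or Shunt replicate 5, and 7 without Shunt replicate 1 or 4. All Shunt libraries had Xist and Dbp above Arntl and all TAC libraries had Arntl above Dbp, so load and clock phase cannot be told apart in that comparison, nor load and sex in Shunt against sham. Among the libraries with Xist, 16 genes were lower in Shunt than in TAC, where 10.2% of all genes were. TAC was then replicates 1 and 2 alone, of which 2 is the library with Ccnd2 near the WT level. The 16 held 8 of the 11 genes above, with Dhx58, Dtx3l and Ifi35 lost.

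Upstream of the list, the interferons themselves were at or near 0. Of 10 ligand genes, 7 had 0 counts in all 18 libraries (Ifna1, Ifna2, Ifna4, Ifna5, Ifne, Ifnl2 and Ifnl3), Ifng had at most 3 counts in a library and 9 in all, and Ifnb1 and Ifnk 1 each, so none was tested. Of the 9 receptor subunits and kinases, 0 were called in sham against WT. In TAC against sham, Ifngr1, the ligand-binding chain of the interferon gamma receptor, was higher by 0.39 ± 0.11 (adjusted p 0.0127), and its partner Ifngr2 and the shared chain Il10rb were lower by -0.40 ± 0.10 (0.00598) and -0.58 ± 0.12 (0.00121). The type I receptor chain Ifnar1 averaged 36.4 ± 1.01 CPM (SD, n = 5) over WT, 34.7 ± 3.11 (n = 5) over sham and 38.7 ± 2.28 (n = 3) over TAC and was not called in these comparisons. Among 8 other Stat and Irf factors, Irf3 was higher and Batf2 lower in sham than in WT, and Irf8 and Irf2 were higher in TAC than in sham. Batf2 was at 4.32 CPM in WT 3 and at 1.08 to 2.54 in the other WT libraries. Of all genes tested, 13.5% were called higher and 14.9% lower in sham against WT, and 16.4% and 14.5% in TAC against sham. Beside these shares, counts of 0 to 2 in lists of 8 and 9 genes say little.

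A list of 14 genes covers signals from nucleic acid sensing to interferon, with Tlr4, which detects a bacterial lipid instead, included. Of these, 5 were lower in sham than in WT (14.9% of all genes), and 7 were higher and 1 lower in TAC than in sham (16.4% and 14.5% of all genes). Traf3, an adaptor downstream of Mavs and Toll-like receptors, fell by 0.33 in sham against WT (SE 0.09, adjusted p 0.0108) and rose by 0.79 ± 0.10 in TAC against sham (3.55e-05). Tlr4, the receptor for bacterial lipopolysaccharide, rose by 1.26 ± 0.21 in TAC against sham (adjusted p 0.000253) and Myd88, its adaptor, by 0.55 ± 0.11 (0.00142). Tlr4 was at 81.6, 40.0 and 36.9 CPM in TAC 1, 2 and 4 and at 18.6 to 23.8 in sham, so TAC 1 weighs most in its rise. Mavs, which relays from Ddx58 and Ifih1, was the one lower in TAC, by -0.26 ± 0.08 (adjusted p 0.0200), and was also lower in sham than in WT, by -0.21 ± 0.07 (0.0299). Of 9 negative regulators listed, 8 were tested and Trex1 had 0 counts in every library. Sham against WT had 3 of them higher and 1 lower, and TAC against sham 2 higher and 1 lower. Of all genes tested, 13.5% were called higher and 14.9% lower in the first comparison and 16.4% and 14.5% in the second, so apart from the 3 higher in sham these counts are near that background. Adar, which edits double-stranded RNA and so hides it from Ifih1, changed by -0.30 ± 0.07 in sham against WT (adjusted p 0.00552) and by 0.40 ± 0.08 in TAC against sham (0.00146). Socs3 rose by 1.02 ± 0.24 in TAC against sham (adjusted p 0.00335). It was at 11.3, 17.9 and 6.18 CPM in TAC 1, 2 and 4 and at 4.91 to 7.37 in sham, so TAC 4 lay inside the sham range.

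Markers of other cell types moved beside the list, and their part in the result was not tested. Of all genes tested, 13.5% were called higher and 14.9% lower in sham against WT, and 16.4% and 14.5% in TAC against sham. In TAC against WT 17.1% were called higher. Counts of 1 in the short lists below say little beside these shares. The heart muscle markers summed to 61918 to 109230 CPM over the libraries, as the tissue label says, and of the 7, 2 were higher in sham against WT and 5 lower in TAC against sham. Of 12 macrophage markers, 0 were called in sham against WT or in TAC against sham by edgeR, with medians of 0.04 and 0.26 on the log2 scale and 5 higher in TAC against WT, and with sums of 288 to 408 CPM in WT, 314 to 467 in sham, 366 to 588 in TAC and 325 to 396 in Shunt. Of 5 monocyte markers tested, 1 was lower in sham than in WT and 3 were higher in TAC than in sham (Fn1, Plac8 and Ms4a4c), with sums of 66.3 to 85.7, 49.6 to 107, 135 to 383 and 69.1 to 121 CPM in the same order. Fibroblasts also make Fn1. Of 10 endothelial markers, 4 were lower in sham than in WT and 6 higher in TAC than in sham, with sums of 1480 to 1918, 1235 to 1570, 1686 to 1817 and 1288 to 1536 CPM. Pecam1, for example, changed by -0.29 ± 0.07 (adjusted p 0.00509) and then by 0.42 ± 0.08 (0.000918). Of 7 fibroblast markers, 0 were called in sham against WT and 6 were higher in TAC than in sham, with sums of 1312.5 to 1629, 1036 to 1794, 2124 to 4905 and 1100 to 1644 CPM. Of 6 markers listed for plasmacytoid dendritic cells, strong makers of interferon, 4 were tested. Of these, 3 (Bst2, Irf8 and Tcf4) were higher in TAC than in sham. The remaining tested marker went the other way, with a log2 fold change of -0.96, and was not called. Bst2 is itself on the list of 34, and Irf8 is among the factors above. The sums were 167 to 192, 141 to 167, 180 to 208 and 170 to 196 CPM. T and NK cell markers summed to 1.11 to 5.18, 2.70 to 7.73, 4.34 to 6.83 and 3.22 to 4.69 CPM, with 1 of 5 tested higher in sham than in WT and 2 higher in TAC than in sham. For B cells those counts were 0 and 1 of 3, and for neutrophils 0 and 0 of 3. Of 4 atrial markers tested, 2 were higher and 1 lower in sham against WT and 1 was higher in TAC against sham, and of 4 erythroid markers 0 and 1, lower in TAC. Atrial markers summed to 132 to 352, 84.5 to 782, 2404 to 5005 and 57.4 to 517 CPM, and erythroid markers to 187 to 336, 40.2 to 431, 16.6 to 35.9 and 27.8 to 558 CPM. No marker of these lists was at 0 in all libraries.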

How the data were processed

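The data are 18 RNA sequencing libraries of mouse left ventricle in 4 groups. The authors deposited 1 table of raw, whole-number counts for each library, with Ensembl gene identifiers and no normalisation. Per the labels' protocols, libraries were made with TruSeq RNA v2, a kit without strand marking, from RNA extracted by RNeasy columns for fibrous tissue. Per the submitters' processing notes, the tools include the aligner STAR 2.3.0e and the counter HTSeq 0.6.1p1, besides SAMtools 0.1.19, DESeq2 1.8, CASAVA 1.8.2 and FastQC, and both GRCm38 and mm10 are named as builds. The annotation release and the strand setting are not given in the sources used here. Lines that name no gene stayed out of library sizes; reads with no feature were 13.6% to 22.8% of reads with a gene, no feature or an ambiguous gene. Symbols came from GENCODE M21, which matched 36602 of 38355 identifiers.

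Low counts were removed by filterByExpr with its minimum of 10, leaving 14876 genes, and TMM gave the scaling. The model, in edgeR 4.0.16 (robust quasi-likelihood) under R 4.3.3, had 1 mean for each group over the 18 libraries; the biological coefficient of variation was 0.160. P-values were adjusted (Benjamini-Hochberg) over all genes tested within each of 6 comparisons, with a threshold of 0.05, and the SE was taken as the absolute log2 fold change divided by the root of F. CPM use the TMM-scaled library size. The method was tested on simulated data in which all genes shared 1 spread, unlike the real libraries. Of genes changed 1.5-fold, 44.4% were called in sham against WT, 30.3% in TAC against sham and 36.4% in TAC against WT. For 2-fold changes these shares were 95.9%, 85.9% and 82.8%, so smaller changes were often missed in the simulation. The adjusted threshold depends on how many genes change, so the shares in the real data may differ.

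The genes and lists were chosen with earlier results of these data known. Genes given in every library are, in each of 5 role groups, those with the smallest p in sham against WT and in TAC against sham, then the 4 smallest in TAC against WT and 2 in each Shunt comparison; Rsad2 and Gbp2 were added after their values were seen. From the other lists (interferon ligands, receptors and kinases, other Stat and Irf factors, nucleic acid sensing, negative regulators, other interferon-stimulated genes, antigen presentation, 11 cell types) counts and up to 3 genes by smallest p are given, with others chosen after their values were seen: Ifnar1, Ifi44, Ifit1, Igtp, Iigp1 and Irgm2. Replicate numbers were checked for pairing by the correlation of same-numbered libraries' deviations from their group means. For TAC and sham it was 0.129, 0.151 and 0.157, above the limit of 0.1, so the replicate block is given there where it changes a call. In the other comparisons at least 1 correlation was below that limit. Alternatives were DESeq2 1.42.0, limma-voom, other scaling, other filters, the block, Y-linked and clock covariates, subsets of libraries and leaving out each library. One gene of the lists is not reported here.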

Additional observations from a re-analysis of the deposited data

Results flagged for a closer look

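In each group of 5 libraries, the library farthest from the rest was compared with the range of the group for each of the 34 genes. Of 102 such groups, 7 had a library past the 95% limit of Dixon's test, which chance passes in about 1 group in 20. WT replicate 3 was the library in 4 of them. Irf9 was at 39.5 CPM there and at 15.6 to 17.9 in the other WT libraries. Stat2 was at 36.2 CPM against 17.8 to 21.8, Parp14 at 66.1 CPM against 38.4 to 42.1, and Trim30a at 17.2 CPM against 11.6 to 12.9. In cycD2 sham, Irf9 was at 21.3 CPM in replicate 2 and at 15.7 to 16.6 in the others. In cycD2 Shunt, Cmpk2 was at 8.52 CPM in replicate 3 and at 9.63 to 9.96 in the others, and Mx1 was at 0.735 CPM in replicate 2 and at 0.261 to 0.335 in the others.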

How the results depend on the processing

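The counts lower in sham than in WT (19) and higher in TAC than in sham (23) stayed within 1.5 times under DESeq2, limma-voom, other scalings, both filters, and each pair of groups fitted alone. Leaving out each library in turn gave 12 to 21 lower in sham against WT, 12 to 28 higher in TAC against sham, 2 to 10 higher and 0 to 1 lower in TAC against WT, 2 to 7 lower in Shunt against WT, and 4 to 15 lower in Shunt against TAC. Without both WT 3 and TAC 2, 10 were lower in sham and 2 lower in Shunt than in WT. Among libraries with Arntl above Dbp the counts were 0 lower in sham against WT, 5 higher in TAC against sham, and 1 higher and 0 lower in TAC against WT. Among libraries with Dbp above Arntl they were 4 lower in sham against WT and 0 lower in Shunt against WT, whose median was then 0.0003 in place of -0.22. With the clock covariate they were 11 higher in TAC against sham, 3 higher and 0 lower in TAC against WT, 2 lower in Shunt against WT and 2 lower in Shunt against TAC, with a median of -0.21 there. With the Y-linked covariate they were 1 higher in TAC against sham (median 0.41), 0 higher and 0 lower in TAC against WT (median -0.083) and 1 lower in Shunt against WT (median -0.53); the median of Shunt against sham was -0.085 and Oasl2 changed by -0.08 there. Libraries with Ddx3y, which hold 1 TAC library, gave a median of 0.40 in TAC against sham and of -0.065 in TAC against WT. The call of Gbp2 lower in TAC against WT (1) was 0 under limma-voom, without the low-count filter, with the replicate block and with the 2 groups alone. Shunt against WT had 2 lower under limma-voom and with the 2 groups alone, Shunt against TAC 7 without the filter, and Shunt against sham 1 higher with the 2 groups alone. Fewer libraries enter the subsets. With Arntl above Dbp, 4.41% of all genes were lower in sham than in WT, in place of 14.9%. With the Y-linked covariate, 1.90% of all genes were higher in TAC than in sham, in place of 16.4%. That adjustment rests mainly on the 3 TAC libraries. For the covariates the cause was not tested. With the replicate block the counts were 20 lower in sham against WT, 21 higher in TAC against sham, 5 higher in TAC against WT, 0 in Shunt against sham, 3 lower in Shunt against WT and 10 lower in Shunt against TAC. In Shunt against TAC each library was most like that of its own number, a hint from the data and not from the design. Depth limits Oas3, Mx1 and Zbp1 most.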

Other observations

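Among 38 other interferon-stimulated genes, 14 were lower and 0 higher in sham than in WT, 14 were higher and 0 lower in TAC than in sham, 8 were higher and 1 lower in TAC than in WT, and 0 were called in Shunt against sham by edgeR. Of all genes tested, 14.9% were lower in sham than in WT, 16.4% higher in TAC than in sham and 17.1% higher in TAC than in WT, so the 8 of 38 (21.1%) in the last comparison are near that background. The medians of the 38 were -0.42, 0.24, -0.04 and 0.11 on the log2 scale. Samd9l changed by -0.38 ± 0.08 in sham against WT (adjusted p 0.00225) and by 0.44 ± 0.09 in TAC against sham (0.00171), and Phf11d by -0.67 ± 0.15 (0.00326) and 0.74 ± 0.17 (0.00328). Ifitm3, which blocks the entry of enveloped viruses, stood at 80.3 ± 8.40 CPM (SD, n = 5) in WT, 67.7 ± 7.48 (n = 5) in sham and 115 ± 20.2 (n = 3) in TAC, and rose by 0.77 ± 0.13 in TAC against sham (adjusted p 0.000238) and by 0.52 ± 0.13 against WT (0.00403). Tor3a, an ATPase of the endoplasmic reticulum, was higher in TAC than in WT by 0.66 ± 0.08 (adjusted p 7.38e-06) and than in sham by 0.49 ± 0.08 (0.000174), but its 0.17 ± 0.07 in sham against WT was positive and not called (0.0721). Of 11 genes of antigen presentation, Psmb10, a subunit of the immunoproteasome, was the one lower in sham than in WT, by -0.43 ± 0.13 (adjusted p 0.0225), and the one higher in TAC than in sham, by 0.50 ± 0.15 (0.0179).

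WT replicate 3 held the highest level of all 18 libraries for 19 of the 38 other interferon-stimulated genes and 9 of the 11 antigen presentation genes, against 1020 of all 14876 genes tested. The largest gaps lay in GTPases that respond to interferon gamma, chosen here after their values were seen. Igtp was at 324 CPM there and at 15.4 to 23.6 in the other WT libraries, Iigp1 at 458 CPM against 26.4 to 50.4, and Irgm2 at 220 CPM against 17.5 to 23.7. Ifng itself had 0 counts in that library.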
